A study of Mus musculus with 11 samples.

Results

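The sarcomere, the contractile unit of striated muscle, changes its protein makeup in the mouse heart around birth. Chromatin at 8 genes of this switch was examined: Tnni1, Tnni3, Tnnt2, Actc1, Acta1, Myl7, Myl4 and Ttn. The genes were selected by name, each with a fixed window of build mm9, and every enriched region that touched a window by at least 1 bp was kept. This gave 166 of the 272485 islands in the 12 island lists, an island being a stretch of enriched reads reported by the authors' caller SICER. A further 12 regions of the comparison tables touched the windows.

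Chromatin immunoprecipitation followed by sequencing had been carried out for H3K4me3, H3K79me2, H3K27me3 and H3K9me3 in mouse heart muscle cells. The neonatal cells were purified cardiomyocytes of mice aged 1 day, and the adult cells were cardiomyocytes of the left ventricle of mice aged 2 months. The labels give no strain, sex, genotype or treatment, and only the adult label names a part of the heart. Age and part of the heart therefore cannot be told apart. Each mark had 1 library per stage, next to 3 input libraries, labelled neonatal input, neonatal input for H3K4me3 and adult input. Island lists and tables against mouse embryonic stem (mES) cells were also deposited, and the authors' notes name mES data of other series.

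H3K4me3 marks active or poised promoters, and H3K79me2 spreads over the early part of genes being transcribed. H3K27me3 is laid down by Polycomb proteins at silent or poised genes, and H3K9me3 is typical of heterochromatin. In the thin filament, troponin I is the inhibitory subunit of the troponin complex and troponin T anchors it to tropomyosin. In rodent heart, slow skeletal troponin I (Tnni1) is replaced by cardiac troponin I (Tnni3) after birth, whereas cardiac troponin T (Tnnt2) and titin (Ttn) change mainly by splicing. Cardiac alpha-actin (Actc1) is the main sarcomeric actin of the heart, and skeletal alpha-actin (Acta1) is also made in the fetal heart. Myl7 and Myl4 encode the regulatory and the essential myosin light chain of atrial muscle, and both are also made in the early ventricle. No RNA was measured in this series.

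Promoters of 7 members are shown, for the genes whose listed regions can be assigned to them. Regions at Tnni1, Tnni3, Myl7 and Ttn are in the H3K4me3 stage table, and Tnnt2, Actc1 and Acta1 are given for comparison. RefSeq promoters were matched for 8 of 8 members, and each runs from 250 bases before to 50 after a gene's start, 5′ to 3′ on the gene's strand, in build GRCm38.p6. The coordinates are chr1:135799171-135799470 (+) for Tnni1, chr7:4522479-4522778 (-) for Tnni3, chr1:135836084-135836383 (+) for Tnnt2, chr2:114052826-114053125 (-) for Actc1, chr8:123894726-123895025 (-) for Acta1, chr11:5898733-5899032 (-) for Myl7 and chr2:76982498-76982797 (-) for Ttn. For Tnni1 and Tnnt2 the first of 2 listed promoters is given. Capitals mark a CArG box, the binding motif of serum response factor, or the letters TATAAA.
Tnni1: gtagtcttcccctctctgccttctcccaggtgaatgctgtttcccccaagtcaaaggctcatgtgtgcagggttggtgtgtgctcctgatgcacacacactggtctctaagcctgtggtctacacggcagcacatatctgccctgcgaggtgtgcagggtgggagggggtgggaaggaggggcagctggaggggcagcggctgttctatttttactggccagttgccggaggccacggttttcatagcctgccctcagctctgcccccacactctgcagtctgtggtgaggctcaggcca
Tnni3: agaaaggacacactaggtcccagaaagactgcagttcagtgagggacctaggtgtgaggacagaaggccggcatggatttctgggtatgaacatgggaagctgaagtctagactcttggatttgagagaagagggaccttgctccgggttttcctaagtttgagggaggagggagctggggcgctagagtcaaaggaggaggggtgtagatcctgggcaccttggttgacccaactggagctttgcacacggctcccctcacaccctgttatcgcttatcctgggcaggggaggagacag
Tnnt2: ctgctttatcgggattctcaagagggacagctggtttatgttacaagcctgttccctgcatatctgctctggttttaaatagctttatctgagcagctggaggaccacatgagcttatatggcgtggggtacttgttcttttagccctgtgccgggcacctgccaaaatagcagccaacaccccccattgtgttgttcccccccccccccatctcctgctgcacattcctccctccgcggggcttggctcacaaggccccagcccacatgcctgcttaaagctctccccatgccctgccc
Actc1: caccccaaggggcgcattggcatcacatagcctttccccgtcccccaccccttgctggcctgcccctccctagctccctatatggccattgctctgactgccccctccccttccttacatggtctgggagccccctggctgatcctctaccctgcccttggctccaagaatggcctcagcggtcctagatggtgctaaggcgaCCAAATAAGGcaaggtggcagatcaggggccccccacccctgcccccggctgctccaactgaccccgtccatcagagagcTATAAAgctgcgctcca
Acta1: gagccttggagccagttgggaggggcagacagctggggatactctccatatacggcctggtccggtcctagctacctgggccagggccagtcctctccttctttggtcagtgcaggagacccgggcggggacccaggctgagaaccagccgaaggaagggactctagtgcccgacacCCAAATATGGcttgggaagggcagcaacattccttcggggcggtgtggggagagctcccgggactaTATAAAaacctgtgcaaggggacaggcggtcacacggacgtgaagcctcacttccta
Myl7: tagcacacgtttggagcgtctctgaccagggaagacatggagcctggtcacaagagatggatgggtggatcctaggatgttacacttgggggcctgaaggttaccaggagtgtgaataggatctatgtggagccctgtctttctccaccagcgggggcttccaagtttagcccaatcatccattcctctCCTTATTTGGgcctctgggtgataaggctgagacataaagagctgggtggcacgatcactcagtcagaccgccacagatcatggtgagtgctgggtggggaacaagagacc
Ttn: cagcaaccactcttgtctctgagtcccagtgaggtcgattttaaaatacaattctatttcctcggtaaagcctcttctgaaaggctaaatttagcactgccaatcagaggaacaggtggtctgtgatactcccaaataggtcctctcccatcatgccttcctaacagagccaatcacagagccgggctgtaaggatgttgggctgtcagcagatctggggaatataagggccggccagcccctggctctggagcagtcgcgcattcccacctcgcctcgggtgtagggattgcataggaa

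Both strands were searched. A CArG box was matched in Actc1, Acta1 and Myl7, that is in 3 of the 8 members, and in 1.63% of 32851 mouse promoters of 300 bases. TATAAA was matched in Actc1 and Acta1 and in 13.6% of all promoters. Tnni1, Tnni3, Tnnt2 and Ttn held neither motif. The promoters held 5 CpG pairs each in Tnni1, Tnni3, Tnnt2 and Myl7, 7 in Actc1, 8 in Ttn and 12 in Acta1, against a median of 7 over all promoters. Myl4 stood apart with 25, more than 81.6% of promoters. The islands are in mm9, for which no annotation was used here, so these starts were not placed on them, and exons and introns were not assigned.

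The island lists differ in length, which bears on any count of islands. H3K4me3 lists hold 21312 neonatal, 23957 adult and 29888 mES islands, and H3K79me2 lists 17899, 60601 and 24554. H3K27me3 lists hold 13552, 23721 and 21880, and H3K9me3 lists 8059, 14921 and 12141. The part of list length in the counts below was not tested.

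H3K4me3 islands lay in 8 of the 8 windows in the neonatal list, in 7 in the adult list and in 6 in the mES list. In the adult list, Tnni1 counts only through an island at the window's edge and Acta1 only through an island of 800 bp. Each of these had a score of 21, above 8.96% of its list. With only the upper 50% of scores, 8 neonatal, 5 adult and 4 mES windows were left. H3K79me2 islands lay in 6 windows at each cardiomyocyte stage and in 1 in mES cells, that of Myl4. H3K27me3 showed the reverse order, with 7 windows in mES cells, 3 in neonatal and 4 in adult cardiomyocytes. The Tnni1 window counts among the neonatal ones through an island at its edge alone, and 2 are left when at least 50% of an island has to lie inside. H3K9me3 islands were few, in 2 neonatal windows, 1 adult and 1 mES window. The known cardiomyocyte genes Tnni3, Tnnt2, Ttn and Actc1 carried H3K4me3 islands at both stages. In pooled cells, fewer cells of a type and less mark per cell cannot be told apart.

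**Figure D1:**
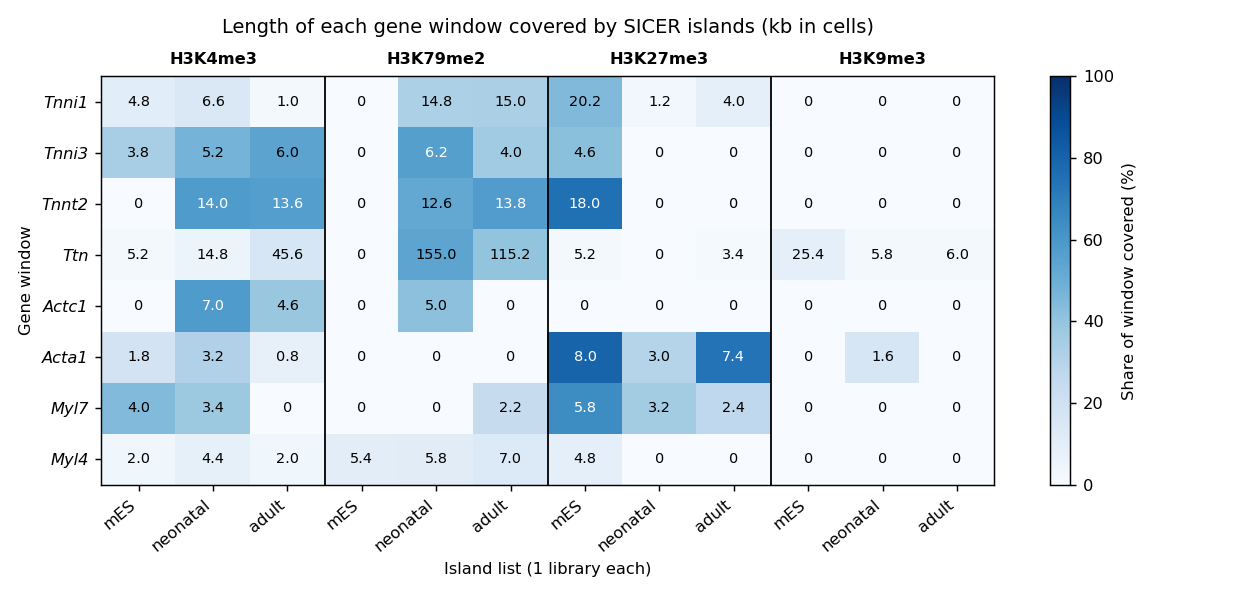
Kilobases of each gene window (rows) covered by SICER islands in each of 12 lists (columns, 1 library each), with colour giving the share of the window in percent. H3K79me2 is absent from mES cells outside the Myl4 window, and H3K27me3 covers 18.0 kb of the Tnnt2 window in mES cells and nothing there in cardiomyocytes.

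Read values came from the authors' comparison tables, which hold reads left after control subtraction, with a floor of 1 read. Neonatal H3K4me3 has a labelled input of its own, and the part of this input in the H3K4me3 stage differences was not tested. A difference is the adult minus the neonatal log2 value after scaling each library by 1 factor. Its 95% interval treats the reads left as plain counts. It covers only their counting error, leaves out that of the subtracted control, and is therefore too narrow. Where a stage stood at the floor, the fold is given as the interval limit nearer to no change. That limit is not a bound on the fold, because the floor is not an observed count. PCR reads without molecular identifiers are not independent molecules. No difference has a replicate check, and the false discovery rates in the authors' deposited table compare the reads of 2 libraries, not the stages. Regions at or above a rate of 0.01 are not in these tables, so a region missing from one is not shown to be equal. Listed regions summed to between 467818 neonatal H3K4me3 reads and 1909655 adult H3K79me2 reads, which are not library sizes. The top region of each library, outside the windows, took 58.9% of the listed neonatal H3K27me3 reads and 58.3% of the neonatal H3K9me3 reads. In the adult libraries the top regions took 13.4% and 11.1%. Whether these are the same region was not examined, and their part in the scaling was not tested.

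The troponin I genes differed in H3K4me3 between the stages. Tnni1 had a neonatal H3K4me3 island of 6600 bp, chr1:137694800-137701399, with a score above those of 90.6% of its list, and no adult island there. The region around it, chr1:137694800-137702199, held 65 neonatal and 9 adult reads. This was a log2 difference of -3.60 (interval -4.80 to -2.59), or 12.2-fold lower in the adult (6.03 to 27.8), with a false discovery rate of 7.30e-36 in the authors' deposited table. Tnni3, the adult isoform, went the other way to a small extent. Its H3K4me3 region chr7:4469800-4476199 held 104 neonatal and 249 adult reads, a log2 difference of 0.51 (0.17 to 0.85) with a false discovery rate of 3.77e-05 in the authors' deposited table. After centring on the median of all listed regions, 0.74, this difference became -0.23, so the direction at Tnni3 depends on the scaling. Its island was 5200 bp long in neonatal and 6000 bp in adult cells, and its score exceeded 97.0% of the neonatal and 99.0% of the adult list.

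H3K79me2 was lower in the adult at both troponin I genes, although both kept islands. The Tnni1 region held 53 neonatal and 42 adult reads, 2.52-fold lower after scaling (1.65 to 3.88). The Tnni3 region held 98 and 81 reads, 2.42-fold lower (1.78 to 3.29). The raw reads at both genes were closer than these folds, because neonatal reads were multiplied by 1.41 and adult reads by 0.707. In the Tnni1 window H3K79me2 islands covered 14.8 kb in neonatal and 15.0 kb in adult cells. The adult length includes 1801 bp at the window's edge towards the next gene, Lad1. An adult H3K79me2 island, chr1:137693600-137698199, lay over part of the neonatal H3K4me3 island of Tnni1, where H3K4me3 had no adult island.

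H3K27me3 islands lay in the Tnni1 window at both stages and in the Tnni3 window at neither. The neonatal island, chr1:137713800-137717199, lay at the window's edge towards Lad1 and had a score of 50, above 75.5% of its list. Adult cells had islands of 1800 and 2200 bp in the Tnni1 window, at chr1:137699000-137700799 and chr1:137705200-137707399, the first inside the neonatal H3K4me3 island. The Tnni1 region held 1 neonatal and 16 adult H3K27me3 reads, with an interval limit of 1.56-fold higher in the adult. The median log2 difference over the whole H3K27me3 table was itself 2.91, and centring on it took the Tnni1 value from 3.33 to 0.42. The scores of the adult islands, 22 and 31, exceeded 38.7% and 70.1% of their list. Tnni3 had an H3K27me3 island in mES cells only, of 4600 bp, and no H3K27me3 row between the stages. H3K9me3 at Tnni3 was low, with 21 neonatal and 8 adult reads and no island at either stage.

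A further region, chr1:137714459-137720399, touched the Tnni1 window with only 542 of its bases and reached towards the next gene, Lad1, so it cannot be assigned to Tnni1. There H3K27me3 counted 12 neonatal and 68 adult reads, 3.56-fold higher (1.91 to 7.22), but lower by 1.08 on the log2 scale after centring on the table's median of 2.91. H3K79me2 counted 1 and 48 reads, with an interval limit of 4.11-fold higher. H3K4me3 counted 12 and 28 reads, a log2 difference of 0.47 whose interval, -0.55 to 1.58, included 0, and which was -0.27 after centring. The only adult H3K4me3 island in the Tnni1 window, of 1800 bp, lay at this edge and extended beyond it.

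**Figure D2:**
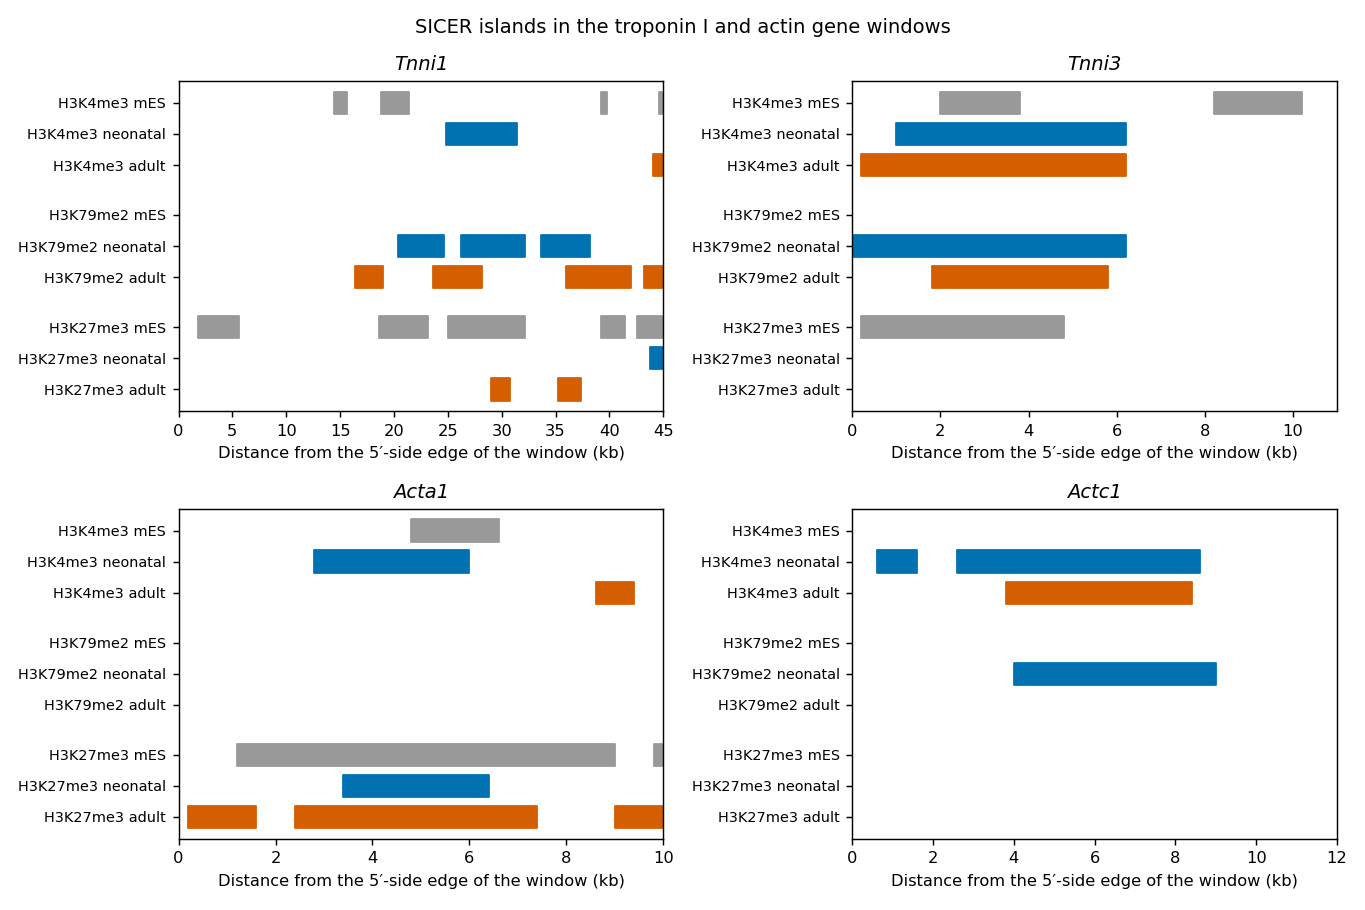
SICER islands of H3K4me3, H3K79me2 and H3K27me3 in the windows of the troponin I and sarcomeric actin genes, plotted by distance in kb from the edge of the window on the gene's 5′ side; grey bars are mES, blue neonatal and orange adult islands, from 1 library each. At Tnni1 and Acta1 the neonatal H3K4me3 bar has no adult bar at the same place, whereas at Tnni3 and Actc1 the bars of both stages overlap.

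Tnnt2 carried H3K4me3 islands over much of its window at both stages. Its region chr1:137732400-137743999 was not listed in the stage table, but the mES tables gave 141 neonatal and 251 adult reads. The log2 difference was 0.08, with an interval of -0.22 to 0.39. It was 0.83 without the library factors and -0.66 after centring, so the direction depends on the scaling. H3K4me3 islands covered 14.0 kb of the window in neonatal and 13.6 kb in adult cells, and H3K79me2 islands 12.6 and 13.8 kb. These lengths include islands that crossed the window's edge towards Lad1 and cannot be assigned to Tnnt2. The neonatal H3K4me3 island there added 2600 bp, and the adult one 800 bp. An adult H3K79me2 island added 2000 bp, and the neonatal list had none at this edge. The direction of both length differences depends on these edge islands. H3K79me2 counted 99 and 140 reads, 1.41-fold lower in the adult (1.08 to 1.84), whereas without the library factors the log2 difference was 0.50 in the other direction. H3K27me3 counted 1 neonatal and 26 adult reads, with an interval limit of 2.68-fold higher (a log2 difference of 4.03, or 1.12 after centring). Neither stage, however, had an H3K27me3 island in the window. H3K9me3 counted 36 and 30 reads, with an interval of the log2 difference of -0.88 to 0.61.

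Of the sarcomeric actins, Actc1 carried H3K4me3 islands in neonatal and adult cells, but H3K79me2 only in the neonatal list. The Actc1 region chr2:113873000-113879399 held 63 neonatal and 92 adult H3K4me3 reads, a log2 difference of -0.21 (-0.68 to 0.28) that was 0.55 without the library factors. For H3K79me2 it held 48 and 10 reads, 9.59-fold lower in the adult (4.79 to 21.3), with a false discovery rate of 3.56e-27 in the authors' deposited table. A neonatal H3K79me2 island of 5000 bp, chr2:113873000-113877999, had no adult counterpart. Actc1 was the only member with no H3K27me3 and no H3K9me3 island in any list.

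Acta1 carried H3K27me3 islands in all 3 lists, unlike Actc1, although both promoters hold a CArG box and TATAAA. The neonatal island, chr8:126415600-126418599, overlapped the neonatal H3K4me3 island chr8:126416000-126419199, and the adult list had no H3K4me3 island in the region chr8:126414600-126419599. An adult H3K4me3 island of 800 bp lay elsewhere in the window, with a score of 21, above 8.96% of its list. H3K27me3 counted 50 neonatal and 51 adult reads, 1.56-fold lower after scaling (1.04 to 2.35), and the log2 difference was 0.029 without the library factors and -3.56 after centring. H3K27me3 islands nevertheless covered 3.0 kb of the window in neonatal and 7.4 kb in adult cells. The adult length includes islands of 1000 and 1400 bp outside the region. Inside it the island was 3000 bp long in neonatal and 5000 bp in adult cells, so island length and scaled reads went in opposite directions there.

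H3K9me3 and H3K79me2 also differed at Acta1. H3K9me3 counted 52 neonatal and 8 adult reads, 5.91-fold lower in the adult (2.79 to 14.4), and the only H3K9me3 island outside Ttn was the neonatal one here, of 1600 bp. Its score of 32 exceeded just 9.70% of that list. H3K79me2 counted 1 and 15 reads, with an interval limit of 1.15-fold higher and no island at either stage. H3K4me3 counted 24 neonatal reads, and its adult reads were not listed.

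The atrial light chain gene Myl7 had an H3K4me3 island in neonatal cells only. The neonatal island, chr11:5795800-5799199, was 3400 bp long, and no adult island lay in the window. The region held 39 neonatal and 11 adult reads, 5.97-fold lower in the adult (3.0 to 12.9), with a false discovery rate of 1.05e-15 in the authors' deposited table. H3K27me3 counted 1 neonatal and 33 adult reads, with an interval limit of 3.47-fold higher (a log2 difference of 4.37, or 1.46 after centring). Both stages nevertheless had an H3K27me3 island, with scores above 52.0% of the neonatal and 77.4% of the adult list. The neonatal value of 1 read therefore does not show that the mark was absent. H3K79me2 counted 1 and 34 reads, with an interval limit of 2.85-fold higher, and an island of 2200 bp was found in the adult only. Myl7 thus had adult islands of H3K27me3 and H3K79me2 over the same stretch. H3K9me3 counted 9 and 1 reads, with an interval limit of 1.13-fold lower and no island.

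The listed region at Myl4, chr11:104396800-104413799, had 5800 of its 17000 bp in the window. In RefSeq, Cdc27, a cell cycle gene, overlaps Myl4 on the opposite strand, so these values cannot be assigned to Myl4 alone. H3K79me2 counted 327 neonatal and 199 adult reads, 3.28-fold lower in the adult (2.75 to 3.94). The H3K4me3 island was 4400 bp long in neonatal and 2000 bp in adult cells, with 72 adult reads and no neonatal value listed. Within the window away from this region, an adult H3K79me2 island of 2800 bp lay at chr11:104433400-104436199, where the neonatal list had none. The mES list had H3K27me3 islands of 3000 and 1800 bp in this part, and neither cardiomyocyte list had one.

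**Figure D3:**
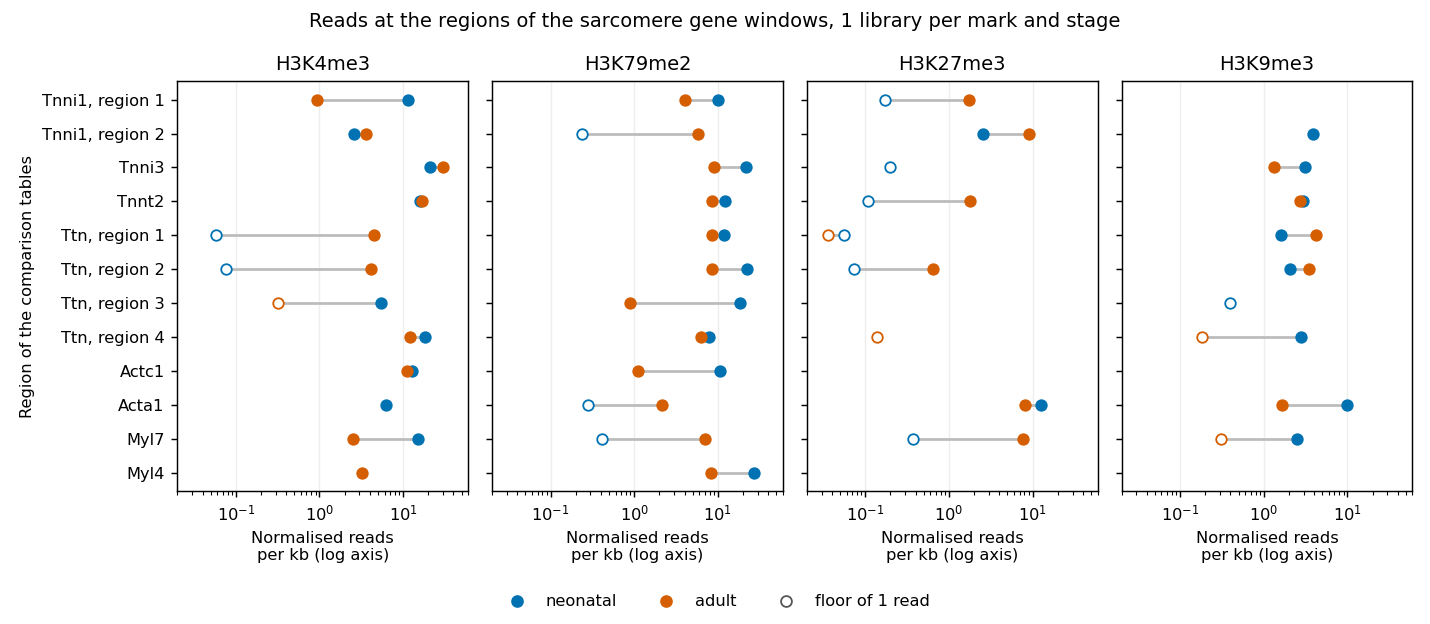
Normalised reads per kb (log axis) of each mark at the 12 listed regions, with blue points for neonatal and orange points for adult cells, 1 library each; open points stand at the floor of 1 read and a missing point was not listed. For H3K4me3, Tnni1 region 1 goes from 11.4 to 0.937 and Myl7 from 14.9 to 2.49, while Tnni3, Tnnt2, Actc1 and the 5′ region of Ttn (region 4) stay above 11 at both stages.

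Per length, the highest listed H3K4me3 levels were at Tnni3, with 21.1 normalised reads per kb in neonatal and 29.99 in adult cells. In neonatal cells the 5′ region of Ttn followed with 18.3, then Tnnt2 with 15.8, Myl7 with 14.9, Actc1 with 12.8 and Tnni1 with 11.4. In the adult, Tnnt2 followed with 16.7, then the 5′ region of Ttn with 12.1 and Actc1 with 11.1. The order thus lost Myl7 and Tnni1 in the adult. With 1 library per stage no spread is known, so neighbours in this order cannot be told apart beyond counting error.

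Titin, the giant elastic protein that runs from the Z-disc to the M-line of the sarcomere, had the most islands. The Ttn window is 287 kb long and the gene lies on the minus strand, so its 5′ side has the higher coordinates. H3K79me2 islands numbered 26 at each stage and covered 155.0 kb, or 54.0% of the window, in neonatal cells and 115.2 kb, or 40.1%, in adult cells. Of the 26 islands of each stage, 18 overlapped one of the other stage. Over all H3K79me2 islands, 88.5% of neonatal ones overlapped an adult one and 33.6% of adult ones a neonatal one. No mES H3K79me2 island lay in the window.

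The Ttn window held more H3K4me3 islands in the adult list than in the neonatal list, many of them with low scores. At the 5′ side, region chr2:76817800-76823599 held 82 neonatal and 91 adult reads, 1.52-fold lower in the adult (1.11 to 2.07), and the log2 difference was 0.15 without the library factors. The window had 3 neonatal islands covering 14.8 kb and 15 adult islands covering 45.6 kb. Of the 15 adult islands, 3 overlapped a neonatal one, against 56.8% of all adult H3K4me3 islands. The lowest score of the 15 lay above 6.61% of the adult list, and the highest, at the 5′ side, above 93.2%. Of the 15 adult islands 13 overlapped an adult H3K79me2 island and 11 a neonatal one. Over all adult H3K4me3 islands, 54.3% overlapped adult H3K79me2, and the share for neonatal H3K79me2 was not computed.

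Far from the 5′ side, region chr2:76543200-76565599 held 1 neonatal and 132 adult H3K4me3 reads, with an interval limit of 13.8-fold higher. Its neighbour chr2:76572400-76589399 held 1 and 91 reads, with an interval limit of 9.46-fold higher. Both had adult H3K4me3 islands, 4 and 2, and no neonatal one. The scores of the 4 lay above 39.9%, 27.4%, 64.7% and 30.8% of the adult list. Those of the 2 lay above 91.0% and 27.4%. These stretches were already covered by H3K79me2 in neonatal cells, with the widest neonatal H3K79me2 island of the window, 22400 bp with a score of 383, over the first and the island of highest score, 406, over the second. H3K79me2 counted 190 neonatal and 272 adult reads at the first, 1.4-fold lower after scaling (1.15 to 1.69), a direction that turned without the library factors, to a log2 difference of 0.52. At the second it counted 271 and 206 reads, 2.63-fold lower (2.19 to 3.17).

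A short region in the middle of Ttn, chr2:76718400-76720799, held 10 neonatal and 1 adult H3K4me3 reads, with an interval limit of 2.39-fold lower. An adult H3K4me3 island of 5600 bp, chr2:76717800-76723399, covers this region and the neonatal list has none, so islands and table reads went in opposite directions. H3K79me2 counted 31 neonatal and 3 adult reads there, 20.7-fold lower (6.44 to 106). It had islands at both stages.

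H3K9me3 at Ttn was higher in the adult in the same far regions and lower at the 5′ side. It counted 38 neonatal and 91 adult reads at chr2:76543200-76565599, 2.63-fold higher (1.78 to 3.95), and 37 and 56 at chr2:76572400-76589399, 1.66-fold higher (1.08 to 2.59). At the 5′ region it counted 17 and 1 reads, with an interval limit of 2.42-fold lower and no island at either stage. The second far region had no H3K9me3 island at either stage either. In the first, the neonatal H3K9me3 island was 4400 bp wide, with a score above 88.4% of its list. The adult one was 2200 bp wide, with a score above 48.6% of its list, so island width and reads went in opposite directions. An H3K27me3 island was present in the adult only, of 3400 bp, in the second region. Reads there numbered 1 and 14, with an interval limit of 1.34-fold higher (a log2 difference of 3.14, or 0.22 after centring).

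**Figure D4:**
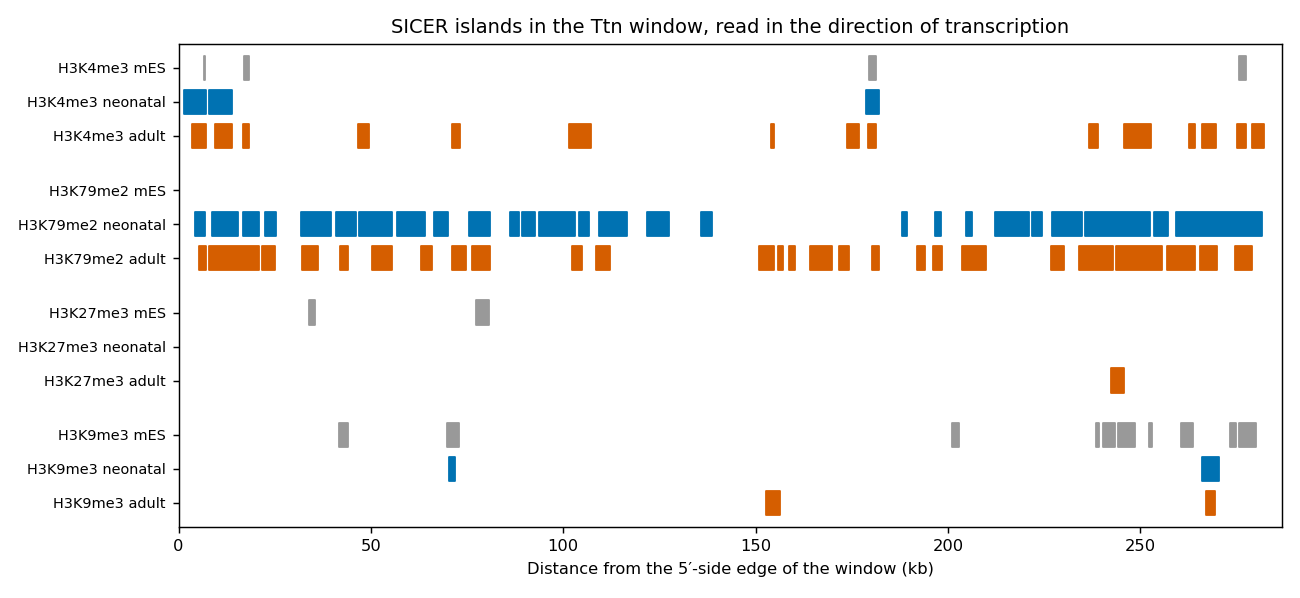
SICER islands in the Ttn window for the 4 marks in mES (grey), neonatal (blue) and adult (orange) lists, 1 library each, by distance in kb from the edge of the window on the gene's 5′ side. H3K79me2 covers 155.0 kb in neonatal and 115.2 kb in adult cells, and the adult list has 15 H3K4me3 islands against 3 in the neonatal list.

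Counted over the listed regions, the members were set against all regions of each stage table. Of 7 H3K4me3 regions, 2 were at least 2-fold higher in the adult (background 45.4%) and 3 at least 2-fold lower (25.8%), with a median log2 difference of -0.60 against 0.74 over the table. Both higher regions lay in Ttn, and those lower were at Tnni1, Myl7 and mid-Ttn. Of 11 H3K79me2 regions, 3 were higher (46.7%) and 6 lower (26.0%), with a median of -1.27 against 0.69. The 3 higher ones stood at 1 neonatal read. Of 6 H3K27me3 regions, 5 were higher (70.3%) and 0 lower (17.7%), a share of higher regions not far from the background, and 4 of them stood at 1 neonatal read. Of 6 H3K9me3 regions, 1 was higher (44.8%) and 4 lower (46.0%). In 12 of these 30 values a stage stood at the floor of 1 read, and in 2 of the 12 the same library had an island there. With so few regions, which also share windows, no test of these shares was made.

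Islands were compared in the same way. Of 14 neonatal H3K4me3 islands in the windows, 10 overlapped an adult one (64.0% of all neonatal islands did), and of 24 adult islands 11 overlapped a neonatal one (56.8%). For H3K79me2, 25 of 34 neonatal islands overlapped an adult one (88.5%) and 28 of 40 adult islands a neonatal one (33.6%). All 3 neonatal H3K27me3 islands overlapped an adult one (43.4%), and 2 of 7 adult ones a neonatal one (28.5%). For H3K9me3, 1 of 3 neonatal islands overlapped an adult one (17.3%) and 1 of 2 adult islands a neonatal one (9.51%), all in Ttn.

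Overlap with mES islands of the same mark was counted too. For H3K4me3, 6 of 14 neonatal islands (63.9%) and 7 of 24 adult islands (57.9%) overlapped a mES one. For H3K79me2 the counts were 1 of 34 neonatal (66.9%) and 2 of 40 adult islands (34.1%). For H3K27me3, 3 of 3 neonatal (52.6%) and 5 of 7 adult islands (36.5%) overlapped a mES one. For H3K9me3, 1 of 3 neonatal (9.62%) and 0 of 2 adult islands (5.92%) did.

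The marks of 1 stage also coincided to different extents. H3K4me3 islands overlapped H3K79me2 in 9 of 14 neonatal cases (36.2%), 20 of 24 adult cases (54.3%) and 2 of 14 mES cases (45.0%). Neonatal H3K4me3 islands overlapped neonatal H3K27me3 in 2 of 14 cases (13.0%), at Acta1 and Myl7. In the adult 1 of 24 did so (16.8%), and in mES cells 7 of 14 (30.3%).

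The comparison with mES cells, which give a state before any heart fate, rests on the folds of the authors' deposited tables. The mES data come from other series, so cell type and experiment cannot be told apart in these differences. Tnnt2, Actc1, Tnni3 and the 5′ region of Ttn were above mES cells in H3K4me3 at both stages. The Myl4 region, which also had islands at both stages, was below them in the adult, by a log2 difference of -0.50 in the authors' deposited table, with no neonatal row. In the authors' deposited tables the log2 differences from mES were 5.03 neonatal and 4.98 adult at Tnnt2, 5.5 and 5.17 at Actc1, 3.43 and 3.82 at Tnni3, and 4.61 and 3.89 at the 5′ region of Ttn. Tnnt2 and Actc1 had no mES H3K4me3 island, while Tnni3 had mES islands of 2000 and 1800 bp. At Tnni1 the neonatal difference in the authors' deposited table was 3.82, and the adult one was not listed.

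Myl7 lay on both sides of mES cells. The log2 difference in H3K4me3 was 1.32 for neonatal and -1.38 for adult cells in the authors' deposited tables. Acta1 was 0.74 above mES cells in neonatal cells by the authors' deposited table. In the far Ttn regions the adult differences were 2.37 and 2.15, whereas the neonatal library stood at its floor, below mES cells. Over the windows, 7 of 11 listed H3K4me3 regions were at least 2-fold higher in neonatal than in mES cells (33.3%) and 3 lower (37.7%). For adult cells 6 of 9 were higher (35.3%) and 1 lower (24.9%).

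For H3K79me2, 8 of 8 listed regions were at least 2-fold higher in neonatal than in mES cells (39.9%), and 9 of 10 in adult cells (51.3%), with 1 lower (33.4%), at Myl4. The mES library stood at its lowest value in all 8 neonatal comparisons and in the 9 adult ones that were higher, so the sizes of these folds depend on the floor and are not given as folds. At chr1:137714459-137720399, 1 of the 9 adult comparisons, the mES list has an H3K79me2 island although the mES value is at its lowest. The Myl4 region was lower in the adult than in mES cells by a log2 difference of -1.66 in the authors' deposited table. There the mES island was 14000 bp long.

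H3K27me3 in mES cells was broadest at Tnnt2, where 1 island, chr1:137734000-137753799, was 19800 bp long with a score of 208. By reads, 5 of 6 listed regions were lower in neonatal than in mES cells (50.3%), each with the neonatal library at its floor, and 1 was higher (45.2%). The higher one was Acta1, with a log2 difference of 1.71 in the authors' deposited table. Its mES island of 7800 bp was wider than the neonatal one of 3000 bp. In adult cells 2 of 4 were higher than in mES cells (44.4%) and 2 lower (46.4%). The higher ones were Myl7, with a difference of 1.64 in the authors' deposited table, and the edge region shared with Lad1, with 1.99.

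H3K9me3 against mES cells differed between members. In the authors' deposited tables Acta1 was above mES cells at both stages, with mES at its lowest value. The far Ttn regions were below mES cells, with log2 differences of -1.74 and -2.0 in neonatal cells and, for the second, -1.20 in adult cells in the authors' deposited tables. The mES list had 10 H3K9me3 islands over Ttn, covering 25.4 kb. Of the listed regions 2 of 6 were at least 2-fold higher in neonatal than in mES cells (45.7%) and 3 lower (46.0%). For adult cells 1 of 4 was higher (47.8%) and 2 lower (46.0%).

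**Figure D5:**
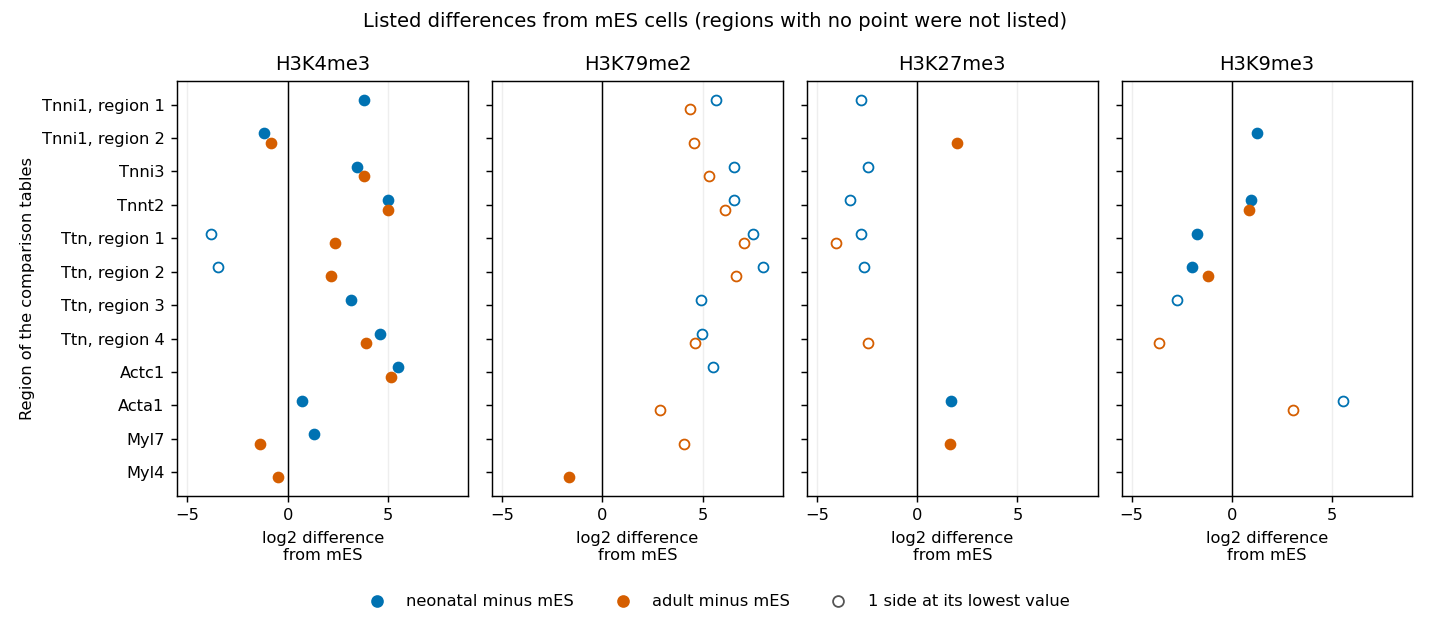
Log2 differences from mES cells in the authors' deposited tables for each mark at the 12 listed regions, blue for neonatal and orange for adult cells, 1 library each; open points have 1 of the compared libraries at its lowest value, and a missing point was not listed. Filled H3K4me3 points lie near 5 for Tnnt2 and Actc1 at both stages, and Myl7 changes sign from 1.32 to -1.38.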

How the data were processed

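Per the submitters' processing notes, Bowtie 0.12.8, SICER 1.1, MACS 1.4.2, DiffBind 1.2.0 and build mm9 were used. The authors deposited SICER islands and MACS regions per library, each with a score, used within its own list alone. The authors also deposited 12 comparison tables, with log2 values and folds, p-values and false discovery rates. Unlogged and divided by the column's lowest value, 100% of the values were whole at a tolerance of 0.01, and these were taken as reads. The same library had the same reads at a region in each table that listed it, so reads were taken from the mES tables where a stage table listed none. Scaling factors (neonatal, then adult) were, in H3K4me3, 1.30 and 0.771, in H3K79me2, 1.41 and 0.707, in H3K27me3, 1.26 and 0.792, and in H3K9me3, 0.954 and 1.05. Because mES cells are not samples here, 8 columns of mES values were not used. To mark where mES stood at its lowest value, its log2 value was rebuilt from the deposited fold and the cardiomyocyte value. Islands and regions sharing at least 1 bp with a window were kept, and all 8 members were named with each of them. Read ratios carry exact conditional binomial 95% intervals (scipy 1.17.1). For a stage at 1 read the interval limit nearer to no change is given, which is not a bound. This code was tested on simulated plain counts without control subtraction, so that test does not bear on the subtracted reads used here. With 1 library per group no p-value was computed, and library totals are not given in the sources. The members and lists were chosen with earlier results of these data known. A count of other sarcomere genes was not run, because no mm9 annotation was used.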

Additional observations from a re-analysis of the deposited data

How the results depend on the processing

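No paired analysis was possible because each group had 1 library, and for the same reason no replicate could be left out. With MACS regions in place of SICER islands, the windows with H3K4me3 went from 7 to 2 in adult and 6 to 2 in mES cells, and those with neonatal H3K79me2 from 6 to 2 and with adult H3K79me2 from 6 to 0. H3K27me3 windows went from 3 (neonatal), 4 (adult) and 7 (mES) to 0 each, and H3K9me3 windows from 2, 1 and 1 to 0 each. With only the upper 50% of scores neonatal H3K9me3 went from 2 to 1, and with at least 50% of an island inside mES H3K79me2 went from 1 to 0. With at least 50% of a region inside the window, regions against mES cells went from 2 to 1 for higher neonatal H3K9me3, 1 to 0 for lower adult H3K79me2 and 2 to 1 for higher adult H3K27me3. At 4-fold in place of 2-fold, adult against neonatal, lower H3K79me2 went from 6 to 2 and higher H3K9me3 from 1 to 0. At 4-fold against mES cells, lower adult H3K4me3 and lower adult H3K79me2 each went from 1 to 0, higher adult H3K27me3 from 2 to 0 and higher neonatal H3K27me3 from 1 to 0. For H3K9me3 lower neonatal went from 3 to 1, higher neonatal from 2 to 1 and lower adult from 2 to 1. Requiring more than 1 read at both stages, which by construction leaves out regions at the floor, took higher H3K4me3 from 2 to 0, higher H3K79me2 from 3 to 0, higher H3K27me3 from 5 to 1 and lower H3K9me3 from 4 to 2. Where the stage of more reads also needed an island, lower H3K9me3 went from 4 to 1. Centred on the table's median, higher H3K27me3 went from 5 to 2, lower H3K27me3 from 0 to 2, higher H3K9me3 from 1 to 2 and higher neonatal H3K9me3 against mES cells from 2 to 1. Without library factors lower H3K79me2 went from 6 to 2. Without the Ttn window, an alternative chosen after seeing the data, higher H3K4me3 went from 2 to 0 and higher H3K9me3 from 1 to 0. Of the listed region differences recomputed with centring or without factors, 37 stayed within the counting interval of the reported value, 17 moved outside it and 6 turned direction. Centring turned Tnni3 H3K4me3 from 0.51 to -0.23 and the Lad1-side H3K27me3 from 1.83 to -1.08. Leaving out the factors turned H3K79me2 at Tnnt2 from -0.50 to 0.50 and at chr2:76543200-76565599 from -0.48 to 0.52, H3K4me3 at the 5′ region of Ttn from -0.60 to 0.15 and H3K27me3 at Acta1 from -0.64 to 0.029. At regions outside the stage tables these alternatives were also chosen after seeing the data. Centring turned H3K4me3 at Tnnt2 from 0.08 to -0.66 and at the Lad1-side region from 0.47 to -0.27, and H3K9me3 at Tnnt2 from -0.13 to 0.46. Leaving out the factors turned H3K4me3 at Actc1 from -0.21 to 0.55 and H3K79me2 at the 5′ region of Ttn from -0.33 to 0.67. The cause was not tested where the construction of the alternative does not show it. Reads per region ran from 1 to 327, which sets the width of the counting intervals.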

Other observations

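Over presence or absence of an island in the 12 lists, the members with the most similar patterns were Tnni3 with Tnnt2 and Tnni3 with Myl4, which matched in 11 lists each. Tnni1, the fetal troponin I gene, and Myl7, the atrial light chain gene, matched in 10 lists, as did Tnni1 with Tnni3, Tnnt2 with Actc1 and Tnnt2 with Myl4. The lowest matches, in 5 lists, were Actc1 with Myl7 and Actc1 with Ttn. Long windows have more room for islands, and the Ttn and Myl4 windows measure 287 and 52 kb against 9 kb for Myl7. The Myl4 H3K4me3 islands lie in the region that cannot be assigned to Myl4 alone. Adult H3K4me3 at Tnni1 counts only through the island at the window's edge towards Lad1. These matches are therefore between windows and not between genes alone.

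Other short motifs were matched in the promoters as a description. CATTCC, the letters bound by TEAD factors, was matched in Tnnt2, Ttn, Acta1 and Myl7 and in 14.7% of all promoters. GATAA, within the motif of GATA factors, was matched in Tnni3, Tnnt2 and Myl7 and in 25.4% of all promoters. The MEF2 site was matched in Ttn and in 0.557% of all promoters. The E-box letters CACGTG were matched in none of the first promoters of the members and in 7.15% of all promoters.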
